A study of Mus musculus with 3 samples.

Results

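The phagocyte NADPH oxidase genes Cybb, Cyba, Ncf1, Ncf4 and Rac2 were examined for binding of PU.1, an ETS-family transcription factor of B cells and myeloid cells, in a mouse pro-B cell line. The 5 genes were taken from a list of oxidase subunits and their GTPase, out of 21887 protein-coding genes. A peak was assigned to a gene where it overlapped, by at least 1 bp, the gene's RefSeq span plus 20 kb on each side. By this rule the genes held 26 of the 74494 peaks of PU.1 replicate 2, 5 of the 6169 peaks of PU.1 replicate 3 and 18 of the 49385 intervals of a merged list.

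Both PU.1 libraries came from i660BM cells, C57BL/6 pro-B cells with a PU.1 construct that doxycycline switches on, given 70 ng/ml of the drug for 24 h. The antibody was the rabbit polyclonal T-21, and 1 further sample was input DNA from the same cell line without treatment, which has no peak list here. Chromatin immunoprecipitated with the antibody was sequenced (ChIP-seq), and the labels number the PU.1 libraries 2 and 3. Every peak described here is from induced cells, so binding that needs the induction cannot be told apart from binding that does not. Peak lists hold no expression, so neither the pro-B label nor the activity of the oxidase genes was checked.

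The oxidase makes superoxide, which phagocytes use to kill microbes. Its catalytic core sits in the membrane and consists of the heme-binding subunit gp91phox, encoded by Cybb, and its partner p22phox, encoded by Cyba. On activation cytosolic components move to this core, among them the organiser p47phox from Ncf1, p40phox from Ncf4 and the GTPase Rac2. Inherited loss of the human counterparts of Cybb, Cyba, Ncf1 or Ncf4 causes chronic granulomatous disease. In myeloid cells PU.1 is a known activator of the human CYBB gene, and B cells also carry a low level of the oxidase.

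Promoter sequences were matched for 3 of the 5 genes, Cybb, Cyba and Ncf1, in a RefSeq table of build GRCm38.p6, which has the coordinates of mm10. They are shown because a replicate 2 peak covered each of them, as described for each gene. All 3 genes lie on the minus strand, and the 250 bases before the annotated start are given 5′ to 3′ on that strand. Capitals mark GGAA, the core that ETS factors recognise, or its reverse complement TTCC.
Cybb, chrX:9469325-9469574: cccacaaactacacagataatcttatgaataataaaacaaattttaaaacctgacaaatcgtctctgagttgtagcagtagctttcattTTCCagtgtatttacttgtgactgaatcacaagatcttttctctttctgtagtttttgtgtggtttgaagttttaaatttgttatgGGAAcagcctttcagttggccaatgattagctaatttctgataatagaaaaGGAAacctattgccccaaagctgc
Cyba, chr8:122432941-122433190: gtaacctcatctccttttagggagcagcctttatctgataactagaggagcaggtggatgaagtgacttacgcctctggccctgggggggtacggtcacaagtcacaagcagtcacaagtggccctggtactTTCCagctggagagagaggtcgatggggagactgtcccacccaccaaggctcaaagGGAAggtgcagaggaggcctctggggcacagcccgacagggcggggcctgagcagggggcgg
Ncf1, chr5:134229626-134229875: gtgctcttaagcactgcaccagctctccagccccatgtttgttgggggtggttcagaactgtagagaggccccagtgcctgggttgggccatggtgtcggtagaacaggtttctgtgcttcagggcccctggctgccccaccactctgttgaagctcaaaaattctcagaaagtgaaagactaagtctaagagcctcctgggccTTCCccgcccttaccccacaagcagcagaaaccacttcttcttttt

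Motifs were searched on both strands of the 300-base window from 250 bases before to 50 bases after the annotated start. GGAA was matched 4 times in Cybb, 2 times in Cyba and 1 time in Ncf1, and 96.0% of the 32851 promoter windows of the table held it. The longer PU.1 core GAGGAA, which contains GGAA, was matched in Cybb alone of the 3, and 28.3% of all windows held it. That match begins at base 10 of the transcript, with the annotated Cybb start as base 1, and reads TTCCTC on the gene's strand. It overlaps a match to GGAANNGAA, the start of the composite element of PU.1 and IRF factors, which 8.24% of all windows held. The still longer GAGGAAGT, held by 3.20% of windows, was in none of the 3. The 24 bases of the Cybb site, shown because both longer motifs overlap there, follow with the same core in capitals.
Cybb site, chrX:9469300-9469323, minus strand: gttttcatTTCCtcatcagaagaa

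Among the 5 genes, Ncf1, Ncf4 and Rac2, which encode cytosolic components, each had a region found in both PU.1 libraries, and both membrane subunit genes, Cybb and Cyba, had peaks in replicate 2 but none in replicate 3. In replicate 2 all 5 genes had a peak in the window, where 84.2% of protein-coding genes did, so that count says nothing particular of these genes. All 5 also had an interval of the merged list, against 76.1% of protein-coding genes. In replicate 3 a peak lay in the window of 3 of the 5, against 24.1% of protein-coding genes. Regions that hold a peak of each library, called shared here, lay in the same 3 windows, against 24.2% of protein-coding genes. There were 6133 shared regions for 6169 replicate 3 peaks, so this count nearly repeats the replicate 3 count. The same 3 had a shared region within 5 kb of an end of the span, against 9.22%, a window that does not grow with gene length. With 5 genes, chosen with earlier results of these data known, these counts are a description and no test was made.

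**Figure D1:**
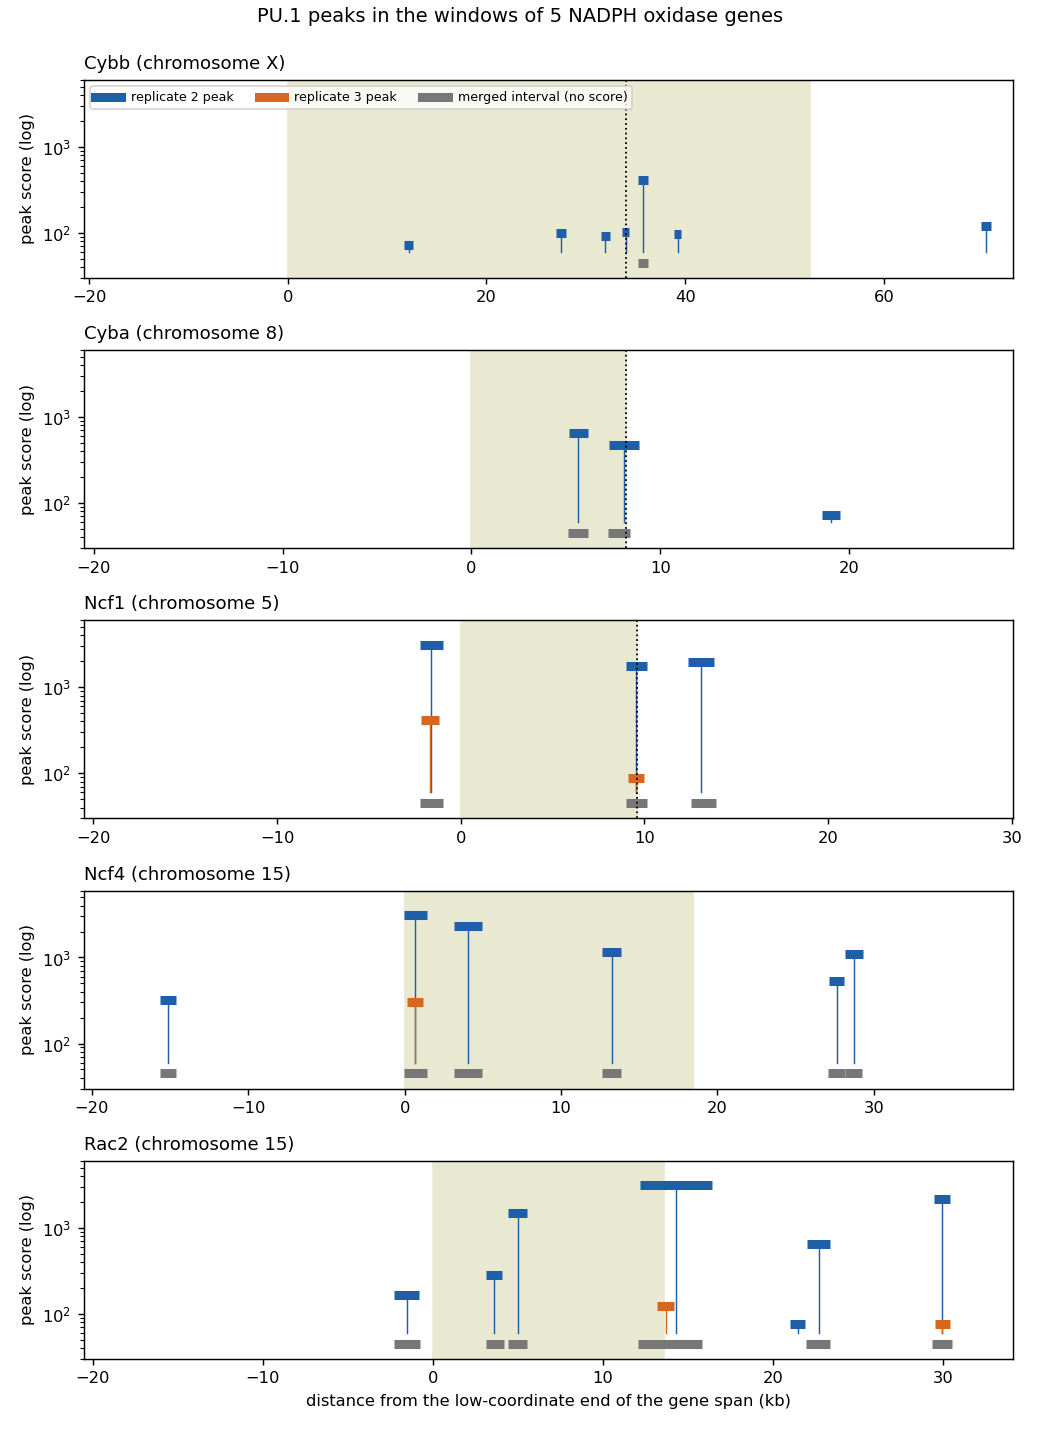
Peaks in each gene's window, by distance from the low-coordinate end of the span (x axis, kb) and peak score (y axis, log scale). Blue bars are replicate 2 peaks and orange bars replicate 3 peaks at true width, gray bars are merged intervals (placed at the bottom, as they have no score), shading is the gene span and the dotted line the annotated start where the promoter table gives one. Orange bars appear at Ncf1, Ncf4 and Rac2 only, each under a blue bar, and the blue bars of Cybb stay at or under 409.

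The deposited score is the peak caller's own, taken to be a p-value on a log10 scale multiplied by minus 10. It depends on library depth and was ranked only within its list. The score has a ceiling near 3100, which 3 of the 26 replicate 2 peaks reached, 1 each at Ncf1, Ncf4 and Rac2. A replicate 2 peak at or above 3100 lay in the window of 12.4% of protein-coding genes. The best replicate 2 score was 652 at Cyba and 409 at Cybb, and the median over protein-coding genes was 719. By best replicate 3 score in the 20 kb windows the order was Ncf1 at 411, Ncf4 at 302 and Rac2 at 123, which lay above 90.8%, 83.6% and 43.3% of the peaks of that list. The Ncf1 value comes from a peak nearest to another gene, Gtf2ird2, and the order turns with the window. With the span alone it was Ncf4 at 302, Rac2 at 123 and Ncf1 at 89.1, and with 50 kb each side Rac2 at 827, Ncf4 at 491 and Ncf1 at 411. With 1 score per library on scales that are not shared, there is no spread by which to separate neighbours in either order.

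**Figure D2:**
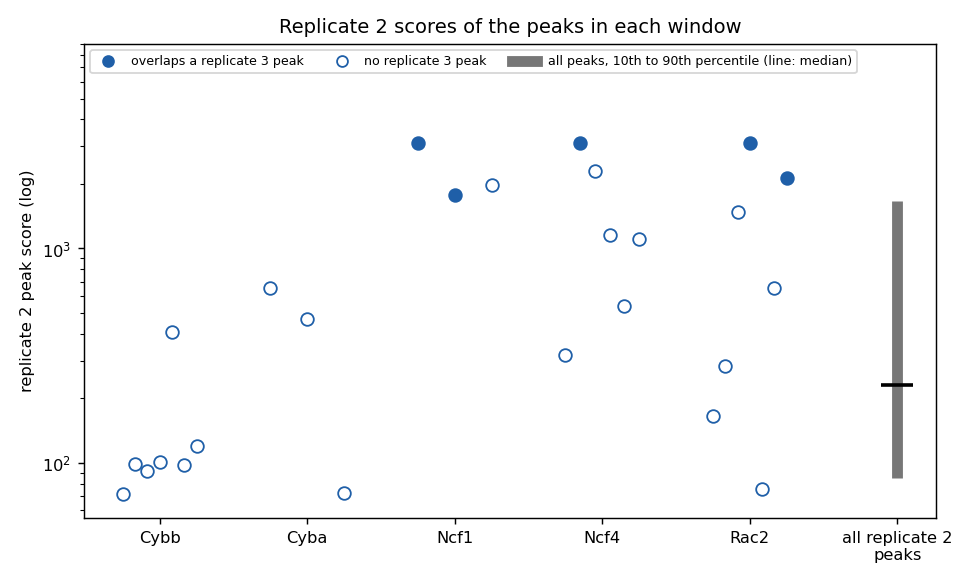
Replicate 2 score (y axis, log scale) of each peak in the windows of the 5 genes (x axis), with all 74494 replicate 2 peaks at the right. Filled points overlap a replicate 3 peak and open points do not, and the gray bar runs from the 10th to the 90th percentile with the median at 232. Filled points lie at or above 1784, and open points reach up to 2296.

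Cybb, the catalytic subunit gene (chromosome X, 9435252 to 9487766), had a window of 92.5 kb, against a median of 57.2 kb over protein-coding genes. It held 7 replicate 2 peaks, most of them with low scores. That count, not scaled to window length, was higher than in 85.0% of protein-coding genes. The best peak, at 9470511 to 9471531, scored 409, above 64.8% of the list, and its centre lay 1.70 kb upstream of the annotated start. The other 6 scored between 71.3 and 120, where the lowest score of the list is 70.0. The peak that covers the whole promoter window, at 9468907 to 9469623, was 717 bp wide, with 4.03% of the list narrower, and scored 100.9. The merged list held 1 interval here, at 9470495 to 9471531, over the best peak and not over the promoter. The annotated start lies inside the RefSeq span, at 9469324, so neither peak is near an end of the span.

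Replicate 3 had no peak in the Cybb window, and none of the 1758 replicate 2 peaks with a score within 5% of 409 overlapped a replicate 3 peak. Chromosome X held 2661 replicate 2 peaks (3.57% of the list) and 82 replicate 3 peaks (1.33%). The part of the low share on chromosome X in the absence of a replicate 3 peak at Cybb was not tested.

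Cyba, the gene of the membrane partner p22phox (chromosome 8, 122424771 to 122432940), had 3 replicate 2 peaks and no replicate 3 peak. The best, at 122429915 to 122430932, scored 652 and lay inside the gene, centred 2.52 kb downstream of the annotated start. The next, at 122432027 to 122433656, scored 466 and covered the start and the whole promoter window; at 1630 bp it was wider than 91.9% of the list. It also reached the 3′ end of Mvd, a sterol synthesis gene that is read in the same direction upstream of Cyba. The third peak, at 122443294 to 122444246, scored 72.2 and overlapped the 5′ end of Mvd. The merged list kept intervals over the first and second of these. Of the 1506 replicate 2 peaks within 5% of the best Cyba score, 0.133% overlapped a replicate 3 peak.

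Ncf1, which encodes the organiser subunit p47phox (chromosome 5, 134220053 to 134229628), had shared regions at its start and beyond its 3′ end. Its 3 replicate 2 peaks scored 3100, 1784 and 1982 in order of coordinate, and its 2 replicate 3 peaks scored 411 and 89.1 at the first and second of these. The strongest lay not at the start but beyond the 3′ end: at 134217832 to 134219065 it was 0.988 kb from the Ncf1 span and overlapped the end of Gtf2ird2, a gene of the GTF2I family that is read toward Ncf1. The peak is nearer to Gtf2ird2 than to Ncf1 and could be assigned to either.

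The second Ncf1 peak, at 134229054 to 134230182, covered the annotated start at 134229625, with its centre 7 bp from it. The replicate 3 peak there, at 134229167 to 134230018, also covered the whole promoter window. Of the 3 promoters matched, all 3 were overlapped by a replicate 2 peak, against 27.5% of all promoter windows, and 1 by a replicate 3 peak, against 2.23%. The third peak, at 134232439 to 134233862, lay 2.81 kb upstream of the span, scored 1982 and had no replicate 3 peak, although it scored higher than the one at the start. Of the 877 replicate 2 peaks with a score within 5% of it, 46.3% overlapped a replicate 3 peak.

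Ncf4, which encodes p40phox, a subunit that binds phosphoinositide lipids (chromosome 15, 78244164 to 78262582), had 6 replicate 2 peaks and 1 replicate 3 peak. The strongest lay across the low-coordinate end of the span, at 78244134 to 78245562, with a score of 3100 in replicate 2 and 302 in replicate 3. The centres of the 2 libraries' peaks were 18 bp apart. Further peaks inside the gene, at 78247340 to 78249105 and 78256810 to 78258001, scored 2296 and 1156, and neither had a replicate 3 peak. For the first of these 64.0% of replicate 2 peaks of like score overlapped a replicate 3 peak, and for the second 4.60%. Outside the span, a pair of adjoining peaks 8.71 and 9.73 kb above it scored 537 and 1110, and 1 peak 14.6 kb below it scored 317. The merged list held an interval over each of the 6.

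Rac2, the haematopoietic Rac GTPase gene (chromosome 15, 78559169 to 78572783), had the densest window of the 5, with 7 replicate 2 peaks, or 13.1 per 100 kb. Ncf4 had 10.3 per 100 kb, Cybb 7.57, Cyba 6.23 and Ncf1 6.05, against a median of 4.05 over protein-coding genes. A peak of 4213 bp lay across the high-coordinate end of the Rac2 span, at 78571357 to 78575569, with a score of 3100. Only 35 of the 74494 replicate 2 peaks were at least this wide. The replicate 3 peak inside it was 988 bp wide and scored 123, and its centre was 611 bp from that of the wide peak.

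The second shared region of Rac2, at 78588600 to 78589565, lay 15.8 kb from the span and scored 2142 in replicate 2 and 76.4 in replicate 3. The nearest protein-coding gene there is Cyth4, at 7.48 kb, which encodes an exchange factor for ARF GTPases. Inside Rac2, peaks at 78562269 to 78563252 and 78563612 to 78564706 scored 283 and 1472 in replicate 2 alone. The remaining 3 peaks of the window scored 166, 75.3 and 655, and the merged list lacked the one at 75.3.

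**Figure D3:**
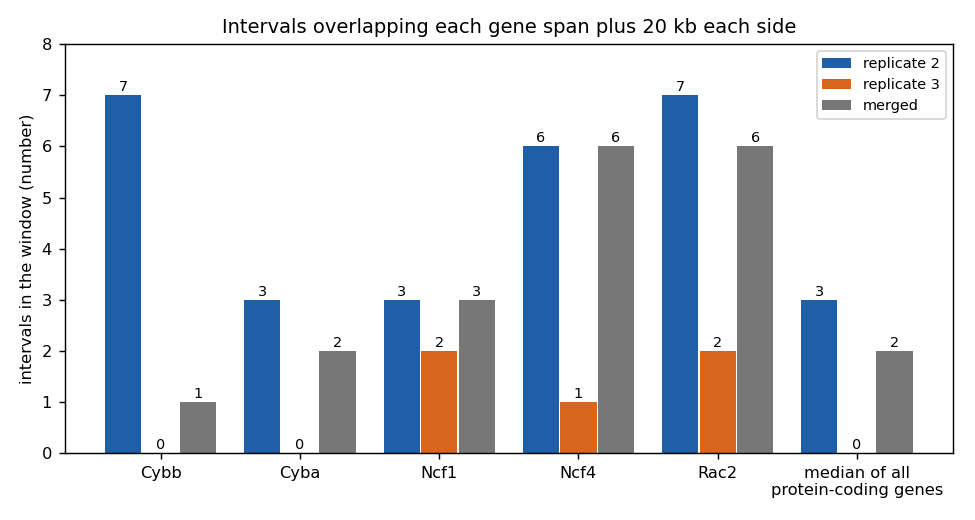
Number of replicate 2 peaks, replicate 3 peaks and merged intervals (y axis) in the window of each gene (x axis), with the median of all protein-coding genes at the right. Cybb and Rac2 both have 7 replicate 2 peaks, but 1 and 6 merged intervals.

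Across the 5 windows, 11 of the 26 replicate 2 peaks lay wholly inside a gene span, 4 crossed an end and 11 lay outside. Their median width was 1020 bp, against 995 bp over the list, and their median score was 502, against 232. A replicate 3 peak overlapped 19.2% of the 26, against 8.24% of all replicate 2 peaks. The values over the list cover peaks at any distance from a gene, so the sets compared are unlike in position. The overlapped peaks lay in the windows of Ncf1, Ncf4 and Rac2 and include those nearest to Gtf2ird2 and Cyth4. The 5 with a replicate 3 peak scored 1784 or more, and the 21 without one had a median of 317 and a maximum of 2296. The score ranges thus overlapped. All 5 replicate 3 peaks lay wholly inside a replicate 2 peak. Over the whole list there were 6133 shared regions for 6169 replicate 3 peaks, so overlap with replicate 2 is not particular to these genes. The merged list held 18 of the 26, which scored 166 or more, and the 8 it lacked scored 120 or less. The whole lists hold 49385 merged intervals and 74494 replicate 2 peaks. The share of all replicate 2 peaks with a merged interval was not computed. Only 2 of the 18 merged intervals had both ends of a replicate 2 peak.

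**Figure D4:**
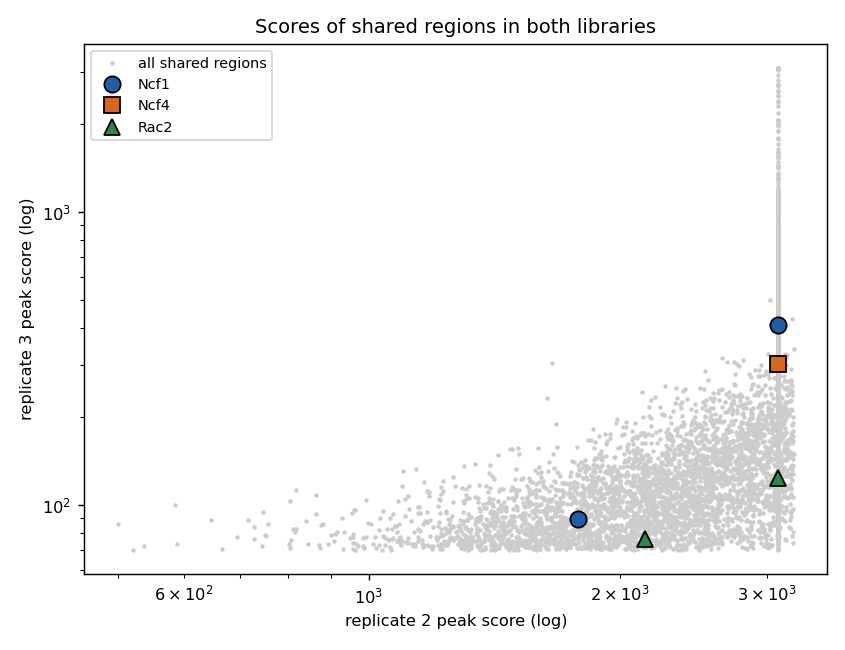
Replicate 2 score (x axis, log scale) and replicate 3 score (y axis, log scale) of all 6133 shared regions (gray) and of the 5 in the windows of Ncf1, Ncf4 and Rac2. At the replicate 2 ceiling of 3100, Ncf1 at 411 and Ncf4 at 302 lie above the median of 266, and Rac2 at 123 below it. The Ncf1 region at the ceiling is the one nearest to Gtf2ird2.

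The 3 genes stand at the same replicate 2 ceiling, so the replicate 3 scores are set beside those of other regions there. Among the 2371 shared regions with a replicate 2 score of exactly 3100, the median replicate 3 score was 266. The Ncf1 region, the one nearest to Gtf2ird2, stood above 76.1% of them, the Ncf4 region above 58.0% and the wide Rac2 region above 7.21%. The shared region at the Ncf1 start scored 1784 in replicate 2 and is not among them.

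Other genes of the oxidase pathway were taken from a list of 26, all matched. It holds subunits and assembly factors, other oxidase enzymes with their partners, and regulators upstream of Rac and of the cytosolic subunits. A shared region lay in the window of 13 of 26, where 24.2% of protein-coding genes had one, and near a gene end in 9 of 26, where 9.22% did. All 26 had a replicate 2 peak. Several of these genes are long, and the window grows with the span.

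Cybc1, whose product helps the membrane core mature, had a shared region across an end of its span with scores of 2038 in replicate 2 and 76.0 in replicate 3. Rap1a, a small GTPase gene, had one inside the gene with 3100 and 671. Hvcn1, the voltage-gated proton channel gene, had a best replicate 2 score of 1543, and Rac1, the widely expressed Rac gene, 1743; neither had a replicate 3 peak.

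Shared regions were found at regulators of Rac. Prex1, an exchange factor for Rac, had 5, the best across an end of its span with 3100 and 804 in replicates 2 and 3. Vav2 had 4, Vav3 had 2 and Vav1 had 1, all exchange factor genes of the same family, with best replicate 3 scores of 677, 413 and 103. Arhgdib, which encodes an inhibitor that holds Rac proteins in the cytosol of blood cells, had 2 with a best replicate 3 score of 140, and Arhgdia had 1 at 77.1. Pik3cg and Pik3r5, the catalytic and regulatory subunit genes of PI3K gamma, had best replicate 3 scores of 782 and 118.

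Of the protein kinase C genes whose products phosphorylate p47phox, Prkcd had 4 shared regions. The one inside the gene scored 191 in replicate 3. Prkcb had 1 at 70.6, next to the lowest score of the list. Among the genes of other oxidases and their partners, Nox1, Nox3, Nox4, Noxo1, Duox1, Duox2, Duoxa1 and Duoxa2 had no shared region. Noxa1, a partner of Nox1, had one 19.0 kb from its span with 2079 and 120. Duox1, Duox2, Duoxa1 and Duoxa2 lie side by side and share peaks, so they are not separate observations. Rac3 and Pla2g4a also had none. The best replicate 2 scores of the 13 genes without a shared region ran from 305 to 1743.

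The genes most like each member were found over 4 values, the number of peaks and the best score in each library, as the smallest Euclidean distance on the log2(1 + value) scale among protein-coding genes whose windows do not overlap. These were Spns3 for Cybb, Igsf5 for Cyba, Adora1 for Ncf1, Sgf29 for Ncf4 and Cd5l for Rac2, at distances of 0.063 or less. Cd5l had 7 and 2 peaks with best scores of 3100 and 117. Cyba had 66 genes within a distance of 0.05, Ncf4 had 6, Cybb had 4, Ncf1 had 2 and Rac2 had 0. The likeness rests on 2 libraries.

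At the edge of the rule, the outermost peak inside the Rac2 window scored 2142 at 15.8 kb, and the first outside it, 23.7 kb away and nearest to Cyth4, scored 3100 in replicate 2 and 212 in replicate 3. For Ncf4 the outermost inside scored 317 at 14.6 kb and the first outside 363 at 21.4 kb, nearest to Csf2rb2. For Cybb these were 120 at 17.3 kb and 77.2 at 35.0 kb, for Cyba 72.2 at 10.4 kb and 676 at 40.7 kb, and for Ncf1 1982 at 2.81 kb and 220 at 28.4 kb. The nearest replicate 3 peak to Cyba was 182 kb away, and the nearest to Cybb 1297 kb away.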

How the data were processed

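Per the submitters' processing notes, the tools were Trim Galore, Bowtie and MACS 1.4.1, and the build was mm10; no source used here names the control for peak calling or says how the merged list was made. The authors deposited a list with a score per peak for each PU.1 library and a merged list in which every score is 0, so that its positions alone were used. Read depth was not used, and the labels do not say that the libraries came from separate cultures. Gene spans came from a RefSeq table of GRCm38.p6 without strand or exons, strands and starts from the RefSeq promoter table. Coordinates are 1-based. Shared regions are merged intervals holding a peak of each library (1 bp overlap).

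The members and lists were chosen with earlier results of these data known, so counts were set beside all protein-coding genes with no test. Named were the members, pathway genes with a shared region, the genes nearest to named peaks and the closest gene in pattern; the remaining pathway genes were named after their values were seen, and some items under the naming rule are not reported here. Alternatives were windows of 0, 5, 10 and 50 kb, gene ends of 1 and 10 kb, a score of at least 100, 50% reciprocal overlap, peak centres, all genes as background, the merged list and each library alone. Interval functions were checked on simulated data. Python 3.11.15, pandas 2.3.3 and numpy 2.4.6 were used.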

Additional observations from a re-analysis of the deposited data

How the results depend on the processing

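Of 41 counts of genes under the alternatives, 38 stayed within 1.5 times the count reported. Some of these could not move, such as a count of all 5 members under a wider window or another background. The 3 counts that moved replace shared regions by a longer list. With the merged list, 5 members had an interval in the window (76.1% of protein-coding genes). Leaving out 1 library gave 3 to 5 members and 13 to 26 pathway genes; the higher count in each is the replicate 2 list alone, where 84.2% of protein-coding genes had a peak. The lower count in each is the replicate 3 list alone, where 24.1% had one. Near a gene end, replicate 3 alone gave 3 members, against 8.95% of protein-coding genes, and replicate 2 alone gave 4, against 61.9%. Ncf1, Ncf4 and Rac2 all kept a shared region with the span alone, with scores of at least 100 and with 50% reciprocal overlap. Each of these gave a count of 3, but the region kept was not always the one at the gene. With scores of at least 100 Ncf1 kept only the region nearest to Gtf2ird2, as its start region scored 89.1 in replicate 3. With 50% reciprocal overlap Rac2 kept only the region nearest to Cyth4, as the replicate 3 peak covered under 50% of the wide peak. Of 40 best scores under other windows, 5 moved by over 1.5 times. With the span alone Ncf1 fell to 1784 in replicate 2 and 89.1 in replicate 3, because its strongest peak lies outside the span. With 50 kb Cyba reached 1986 in replicate 2, and Ncf4 491 and Rac2 827 in replicate 3, from peaks outside the 20 kb, so the order of the genes by replicate 3 score turned under both windows. The length of the replicate 3 list limits what its absences show.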

Other observations

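Ncf4 and Rac2 lie on the same chromosome, 297 kb apart. Between their windows lay 19 replicate 2 peaks, 13 merged intervals and 2 replicate 3 peaks. Both replicate 3 peaks there belonged to shared regions.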
